A study of Mus musculus with 4 samples.

Results

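Extracellular nucleotide and adenosine signalling was described gene by gene in mouse cells labelled T-helper 17 (Th17) cells, which are CD4 T cells known for making the cytokines IL-17A and IL-17F. The 10 genes are P2rx4, P2rx7, P2ry10, Adora2a, Adora2b, Entpd1, Nt5e, Panx1, Ada and Art2b. They were named as members of a pathway, with no measured value in the rule, though earlier results of these data were known when they were named. They make up 10 of the 50600 genes in the deposited count tables. RNA-seq was done on 4 libraries of primary cells of strain C57BL/6NJ, numbered as biological replicates 1 to 4. All 4 belong to 1 group, with no control, treatment contrast or second time point, so levels are described within that group. Each library has its own biosample record, while all share 1 donor record, and neither age nor sex is given. The labels link a differentiation protocol for CD4 T cells, yet the alignment names carry an hour tag of 0 in every library. Nothing says whether the libraries came from separate cultures, so p-values measure only the spread between these samples, which may be technical.

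Total counts ranged from 29041979 to 48808978 fragments per library, and the libraries correlated with each other at Pearson r of 0.994 to 0.997 across genes on the log2(CPM + 1) scale. The general T cell markers were plentiful, with 5 of 5 at 1 TPM or more in every library (TPM is a share of the library corrected for gene length). Cd4 stood at 963, 923, 1003 and 985 TPM in replicates 1 to 4. Of the Th17 markers 3 of 7 were at that level, a share near the 45.6% of all protein-coding genes. Il17a stood at 6.36, 4.30, 3.06 and 3.17 TPM, and Il17f at 14.4, 9.21, 7.69 and 8.03 TPM. Of the markers of naive T cells 5 of 5 reached 1 TPM in every library, and their summed level was 5298 to 6049 TPM. Markers of regulatory T cells, where Entpd1, Nt5e and Adora2a are known to be used, gave 4 of 6 with a summed level of 19.1 to 24.7 TPM, and their defining factor Foxp3 stood at 3.34, 4.32, 3.91 and 3.72 TPM. Of other cell types, 0 of 5 B cell markers, 1 of 6 myeloid markers (Itgam) and 0 of 5 dendritic cell markers reached 1 TPM in every library. The counts were 0 of 4 for NK cell markers, 1 of 2 for CD8 T cell markers (Cd8b1) and 0 of 5 for erythroid and platelet markers. Cd8b1 averaged 42.9 TPM, while the other CD8 marker, Cd8a, had 23 counts over the 4 libraries. In the list of 5 stromal and endothelial markers 1 gene passed, Epcam, which is an epithelial gene. Summed NK cell markers stood at 0.401, 0.434, 0.612 and 1.69 TPM in replicates 1 to 4. Summed myeloid markers stood at 2.16, 1.55, 1.57 and 2.73 TPM. The stromal and endothelial sum was also highest in replicate 4, while the B cell, dendritic cell and CD8 sums were highest elsewhere. The B cell marker Cd79a averaged 1.37 TPM and was under 1 TPM only in replicate 1, at 0.906 TPM. The myeloid genes Cd14 and Fcgr1, the dendritic cell gene Xcr1, the stromal gene Pdgfra and the erythroid and platelet genes Hba-a1, Pf4 and Ppbp had 0 counts in every library.

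ATP leaves cells through channels such as pannexins and acts on P2X ion channels and P2Y receptors. Ecto-enzymes at the cell surface then turn it over: CD39 (Entpd1) removes phosphates down to AMP, and CD73 (Nt5e) turns AMP into adenosine. Adenosine acts on its own receptors, of which the one encoded by Adora2a raises cyclic AMP and dampens T cell activation, and it is cleared by deaminase, kinase and transporters. In mouse T cells NAD joins the same system, because the surface enzyme made by Art2b uses it to ADP-ribosylate P2X7, which opens that channel.

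Sequences of the reference transcripts (GENCODE M21, reference strain C57BL/6J) are given first where the gene itself differs by copy or by strain. In the first 2 lines the capitals mark codon 161, counted from the start codon of Art2b, which is a sense codon for arginine in Art2b and an in-frame stop in its neighbour Art2a-ps. Over 864 aligned bases of the Art2b coding sequence the copies shared 87.4% of bases. In the third line the capitals mark a leucine codon of P2rx7 in the reference. At this residue of the intracellular tail some other mouse strains are known to carry proline, the form with the stronger channel response. The deposited counts do not show which base these mice carried.
Art2b: aagggctctgtgCGAtttgggcagttc
Art2a-ps: aagggctctgtgTGAtttgggcatttt
P2rx7: cacgactcacccCTGactcctggacaa

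Promoter windows of 300 bases, from 250 before a RefSeq start to 50 after it on GRCm38.p6, were found for 9 of the 10 genes, giving 12 windows because 3 genes have a second start. Windows are printed for the 3 genes of highest mean level, on the gene's own strand. Capitals mark the letters CCGGAA (bound by ETS factors) and TGTGGT (bound by RUNX factors) or their reverse complements. TATAAA was also searched on both strands. In Panx1 the 4 ETS matches are 2 palindromic places, each counted on both strands. Art2b lies at chr7:101581112-101581411 on the minus strand, P2ry10 (first start) at chrX:107088242-107088541 on the plus strand and Panx1 at chr9:15045429-15045728 on the minus strand. The Art2b window lies inside the gene's deposited span, from 101576970 to 101585600. Its RefSeq start is thus an internal one, and the window may not be the promoter in use.
Art2b: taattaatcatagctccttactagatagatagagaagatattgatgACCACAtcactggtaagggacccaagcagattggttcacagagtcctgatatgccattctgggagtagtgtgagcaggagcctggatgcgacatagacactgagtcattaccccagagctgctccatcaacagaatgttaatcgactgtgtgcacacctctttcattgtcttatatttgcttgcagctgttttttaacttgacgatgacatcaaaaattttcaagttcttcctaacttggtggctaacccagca
P2ry10: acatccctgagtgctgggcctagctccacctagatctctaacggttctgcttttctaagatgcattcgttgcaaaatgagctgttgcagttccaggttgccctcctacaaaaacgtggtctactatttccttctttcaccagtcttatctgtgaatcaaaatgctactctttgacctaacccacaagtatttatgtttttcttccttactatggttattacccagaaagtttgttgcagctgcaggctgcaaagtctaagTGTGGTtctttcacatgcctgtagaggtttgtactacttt
Panx1: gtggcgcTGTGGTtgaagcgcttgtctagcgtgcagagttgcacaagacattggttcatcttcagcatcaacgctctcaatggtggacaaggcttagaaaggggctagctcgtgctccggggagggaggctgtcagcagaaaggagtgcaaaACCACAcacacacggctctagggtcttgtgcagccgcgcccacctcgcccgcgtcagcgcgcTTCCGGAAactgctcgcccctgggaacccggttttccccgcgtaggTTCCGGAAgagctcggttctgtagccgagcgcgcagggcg

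The letters TGTGGT were found in 5 of the 12 windows, against 16.8% of 32851 mouse promoters of the same length. These were 4 of the 4 windows of Art2b (internal start), P2ry10 and Panx1 and 1 of the 8 windows of the other genes, the second start of Entpd1. CCGGAA was found in 3 windows (Ada, P2rx4 and Panx1), against 14.9% of promoters, and TATAAA in 0, against 13.6%. A match describes letters only. The grouping by mean level came from these same libraries, with P2ry10 counted at its first and second start. A link with level was not tested. Base composition separated the windows: Nt5e had 71.0% G + C with 23 CpG dinucleotides, Adora2b 70.0% with 27 and the first start of Entpd1 64.0% with 23, against a median over all promoters of 52.7% with 7. The windows of Ada (68.0% with 20), Panx1 (61.3% with 25) and P2rx4 (60.3% with 18) were also above that median. Art2b, at its internal start, and the first start of P2ry10 each had 42.3% with 3. The CpG-rich windows thus belonged to genes above 1 TPM (Nt5e, Ada, Panx1 and P2rx4) and under it (Adora2b and Entpd1).

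Of the 10 genes, 8 stood at 1 TPM or more in every library and Entpd1 and Adora2b did not. The background was 45.6% of 21764 protein-coding genes, which is also the share to set beside each list count below. The same 8 genes passed at 0.5 TPM, at 2 TPM and at 1 CPM, the count scaled by library total alone. Their levels ran from 117 ± 16.2 TPM for Art2b to 11.6 ± 2.36 TPM for Nt5e (SD, n = 4), and the median over the 10 genes was 16.4 TPM against 0.355 TPM over all protein-coding genes. In bulk RNA, fewer cells that express a gene and less RNA per cell cannot be told apart.

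**Figure D1:**
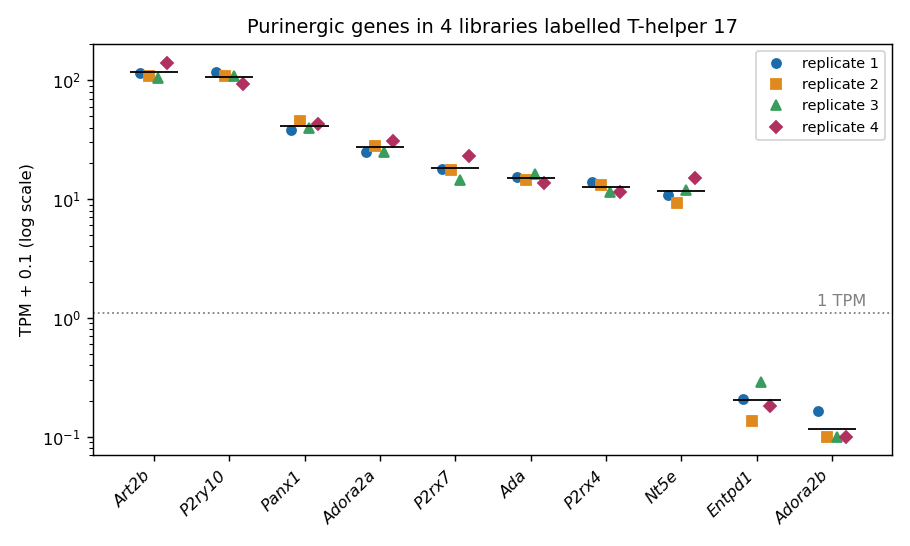
Level of each of the 10 genes (TPM + 0.1, log axis) in replicates 1 to 4, drawn as points, with a black line at the mean; the dotted line marks 1 TPM. Art2b and P2ry10 lie near 100 TPM, 6 genes between 9.22 and 45.3 TPM, and Entpd1 and Adora2b at or under 0.189 TPM.

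Panx1 encodes a plasma membrane channel through which T cells release ATP (mm10 chromosome 9, from 15002128 to 15045478, minus strand). Its level was 38.3, 45.3, 39.2 and 42.4 TPM in replicates 1 to 4, above 80.0% of protein-coding genes, with replicate 2 highest. Its relatives were not detected at this depth: Panx2 and Panx3 had 0 counts in every library. Over a floor of 3 counts per library, the limit a count of 0 allows, Panx1 was at least 382-fold higher than Panx2 in the library with the lowest ratio and at least 668-fold higher in that with the highest. The pair's log2(TPM + 0.1) difference had the smallest exact two-sided sign-flip permutation p that 4 libraries allow, which cannot pass 0.05, and an adjusted p of 0.156 over the 15 pairs compared in all. Of the ATP release list, 3 of 6 genes reached 1 TPM in every library. Slc17a9, which loads ATP into vesicles, averaged 130 TPM and Lrrc8a, a volume-regulated anion channel subunit, 16.2 TPM.

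Of the 7 genes for ATP-gated P2X channels, 2 reached 1 TPM in every library, P2rx7 and P2rx4. P2rx7 encodes the high-threshold channel that drives shedding and death of T cells (chromosome 5, from 122643911 to 122691432, plus strand), and P2rx4 a channel that opens at lower ATP (chromosome 5, from 122707544 to 122729738, plus strand). P2rx7 stood at 17.7, 17.4, 14.4 and 22.7 TPM in replicates 1 to 4, and P2rx4 at 13.9, 12.9, 11.4 and 11.4 TPM. P2rx7 was highest in replicate 4, where P2rx4 was lowest, and the ranges of the genes did not overlap. The log2 ratio of P2rx7 over P2rx4 was 0.52 ± 0.32 (SD, n = 4), positive in 4 of 4 libraries, with that smallest exact permutation p (adjusted p 0.156). P2rx5 and P2rx6 had 0 counts, and P2rx7 held 57.3% ± 5.65 of the summed P2X level against 39.8% ± 4.75 for P2rx4. Their order depended on gene length. The deposited length of P2rx4 is 7025 bases over the union of all exons, whereas its longest protein-coding transcript has 2702. With transcript lengths, an alternative added after the lengths were seen, P2rx4 averaged 23.5 TPM and P2rx7 15.9 TPM, the log2 ratio was -0.57 and the P2rx7 share was 39.4%.

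**Figure D2:**
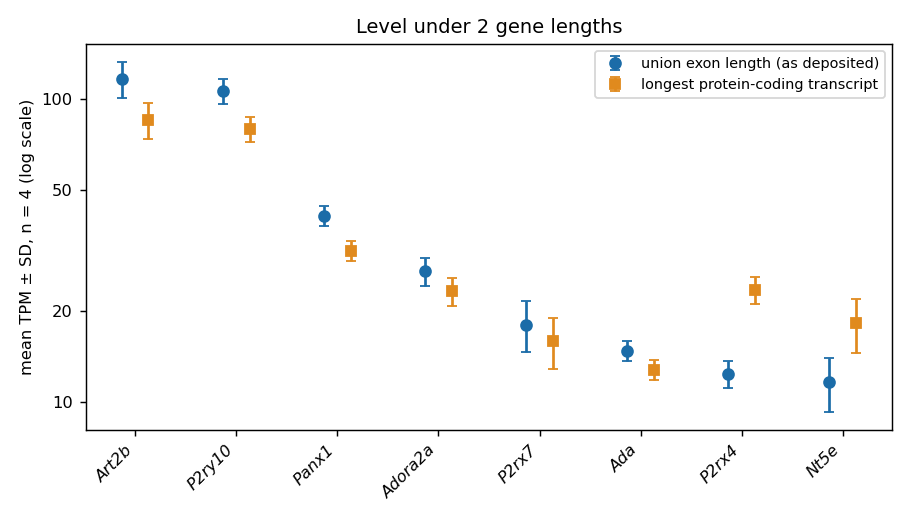
Mean TPM ± SD (n = 4, log axis) of the 8 genes above 1 TPM, with the deposited union exon length (circles) and the length of the longest protein-coding transcript (squares). P2rx4 moves to 23.5 from 12.4 TPM and Nt5e to 18.3 from 11.6 TPM, while the other 6 genes move down.

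None of the 7 P2Y genes, receptors that nucleotides activate through G proteins, reached 1 TPM in every library, and P2ry6 and P2ry13 had 0 counts. This too depended on gene length for P2ry14, which had 245 counts and averaged 0.510 TPM. Its deposited length is 11059 bases and its longest protein-coding transcript has 2476, with which it averaged 1.66 TPM. Of 7 genes known to act with P2X7, 6 were at 1 TPM or more in every library, against 45.6% of all protein-coding genes. The lowest of the 6 was Casp1, at a mean of 3.63 TPM. The sheddase Adam10 averaged 109 TPM, the lipid scramblase Ano6 77.6 TPM and the inflammasome adaptor Pycard 71.5 TPM. Nlrp3, the inflammasome sensor that P2X7 triggers in myeloid cells, had 0 counts in every library.

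Art2b, the NAD-using ADP-ribosyltransferase upstream of P2X7, had the highest mean of the 10 genes (chromosome 7, from 101576970 to 101585600, minus strand). Its level was 114, 109, 104 and 140 TPM in replicates 1 to 4, above 93.4% of protein-coding genes. The other libraries lay close together and replicate 4 above them. Art2a-ps, the copy with the stop codon shown above, had 9 counts over the 4 libraries against 15059 for Art2b, a pooled ratio per length of 744 (exact 95% interval 392 to 1627, counting error only). The log2(TPM + 0.1) difference was 8.91 ± 1.11 (SD, n = 4), with that smallest exact permutation p (adjusted p 0.156), and it was 6.64 with a pseudocount of 1 TPM. Of all 50-base words in Art2b transcripts, 94.3% occur in no other gene and 142 words occur in Art2a-ps, so fragments inside those words cannot be assigned. Art2b held 90.3% ± 1.22 of the summed level of the NAD enzyme and ADP-ribosyltransferase list, in which 3 of 8 genes passed 1 TPM. The other 2 were Art4, at a mean of 9.50 TPM, and Art5, at 1.63 TPM.

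Entpd1 and Nt5e are the consecutive steps from ATP to adenosine, and their levels were far apart. Entpd1, or CD39 (chromosome 19, from 40612366 to 40741602, plus strand), had 5, 2, 15 and 6 counts in replicates 1 to 4, or 0.108, 0.0361, 0.189 and 0.0832 TPM. Nt5e, or CD73 (chromosome 9, from 88327197 to 88372092, plus strand), had 10.8, 9.22, 11.8 and 14.8 TPM. Every library held far more Nt5e, with replicate 4 highest and replicate 2 lowest. The log2 difference of Entpd1 minus Nt5e was -5.88 ± 0.43 (SD, n = 4), negative in 4 of 4 libraries, with that smallest exact permutation p (adjusted p 0.156). With a pseudocount of 1 TPM it was -3.50, since Entpd1 lies near the pseudocount. In replicate 4, where Nt5e was highest, the summed markers of regulatory T cells stood at 19.1 TPM, with 24.7, 22.8 and 19.3 TPM in replicates 1, 2 and 3. Of these markers Ctla4 was lowest in replicate 4, while Foxp3, Il2ra and Ikzf2 had their lowest library elsewhere. Their part in the Nt5e level was not tested.

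Of the 10 genes in the extracellular hydrolase list, Nt5e and 2 others reached 1 TPM in every library. Acpp, a phosphatase that can also make adenosine from AMP, averaged 14.3 TPM, and Enpp1, which cuts ATP to AMP and pyrophosphate, 4.80 TPM. Entpd2 and Entpd8, surface relatives of Entpd1, had 0 counts. Nt5e held 37.0% ± 2.41 of the summed level of the list. With transcript lengths its share was 44.2%, and it averaged 18.3 TPM against 17.0 TPM for Acpp. Inside the cell, 3 of 5 intracellular ENTPD genes passed, with Entpd5 at 78.7 TPM, Entpd6 at 59.3 TPM and Entpd7 at 2.82 TPM. Entpd4 and Entpd4b share every 50-base word of their transcripts, so their 1 and 0 counts cannot be read as absence. Of the cytosolic and mitochondrial nucleotidases 5 of 7 passed, led by Nt5c at 258 TPM, Nt5c3b at 72.6 TPM, Nt5c3 at 35.7 TPM and Nt5c2 at 25.3 TPM, while Nt5c1a and Nt5c1b had 0 counts.

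Adora2a, the receptor that couples adenosine to cyclic AMP at low concentrations, had the highest level of the 4 adenosine receptor genes (chromosome 10, from 75316877 to 75334784, plus strand). Its level was 24.8, 27.8, 25.0 and 30.9 TPM in replicates 1 to 4. Adora2b, the low-affinity receptor of the same coupling (chromosome 11, from 62248984 to 62266453, plus strand), had 1 count in replicate 1 and 0 in the others. A count of 0 allowed up to 0.164, 0.114 and 0.126 TPM in replicates 2, 3 and 4. The pooled ratio of Adora2a over Adora2b was 2282 per length (exact 95% interval 409 to 90152, counting error only). The log2(TPM + 0.1) difference was 7.90 ± 0.46 (SD, n = 4), with that smallest exact permutation p (adjusted p 0.156). Its size is set by the pseudocount, and it was 4.78 with 1 TPM. Adora1 had 0 counts, and Adora2a held 99.7% ± 0.269 of the summed level of the 4 adenosine receptors. The list of the cyclic AMP arm downstream had 14 of 16 genes at 1 TPM or more in every library, against 45.6% of all protein-coding genes. The adenylyl cyclase Adcy7 averaged 388 TPM, the kinase subunits Prkar1a and Prkacb 297 and 122 TPM, and Gnas, the stimulatory G protein, 106 TPM.

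Ada, the deaminase that turns adenosine into inosine and whose loss causes severe immunodeficiency (chromosome 2, from 163726584 to 163750239, minus strand), stood at 15.3, 14.3, 16.2 and 13.5 TPM in replicates 1 to 4. Adk, the kinase that turns adenosine back into AMP, stood at 64.9, 69.1, 62.8 and 55.5 TPM. Adk was the higher in every library. The log2 ratio of Ada over Adk was -2.08 ± 0.13 (SD, n = 4), with that smallest exact permutation p (adjusted p 0.156). Of 9 listed genes of adenosine clearance 8 had a row, and 6 of those reached 1 TPM in every library. Besides Adk they were led by the transporters Slc28a2 at 179 TPM, Slc29a1 at 31.5 TPM and Slc29a3 at 22.8 TPM, while Slc28a3 had 0 counts.

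**Figure D3:**
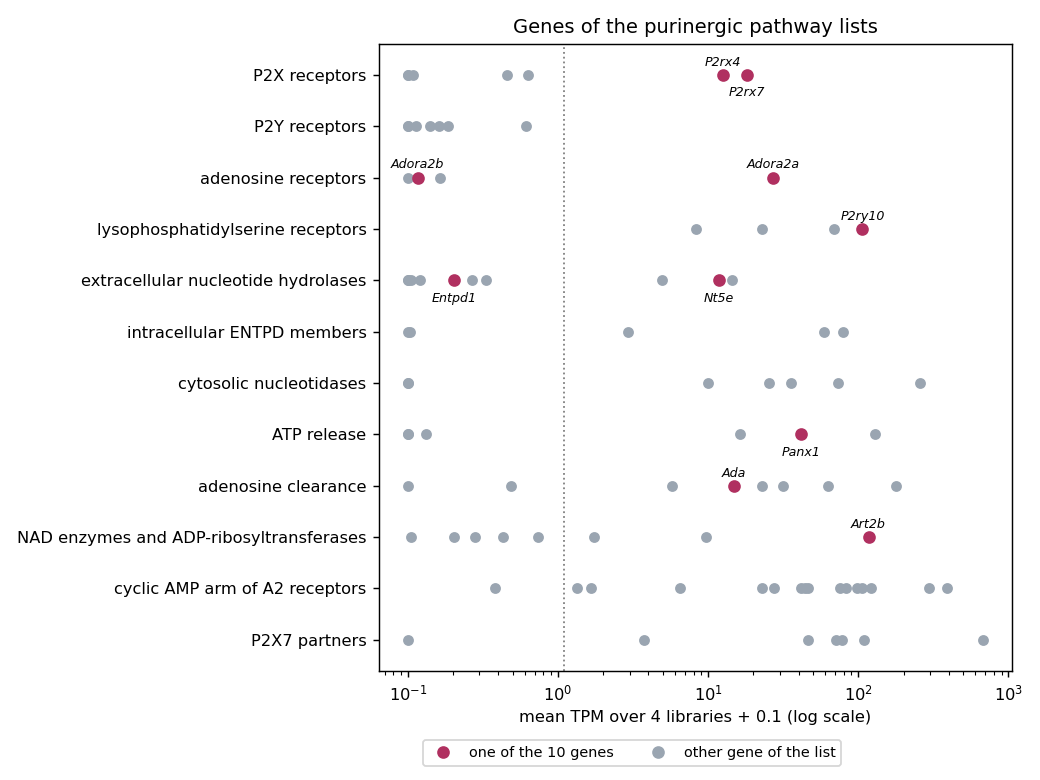
Mean level over 4 libraries (TPM + 0.1, log axis) of every gene in the 12 pathway lists, 1 list to a line, with the 10 genes in red and other list members in grey; the dotted line marks 1 TPM. At the deposited lengths P2Y receptors lie left of the line as a whole, and Adora2a, P2rx7 and P2rx4 stand apart from their receptor families.

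P2ry10 is grouped with P2Y receptors by sequence, but its known ligand is lysophosphatidylserine and not a nucleotide (chromosome X, from 107088492 to 107104974, plus strand). Its level was 117, 107, 107 and 93.0 TPM in replicates 1 to 4, above 92.5% of protein-coding genes and lowest in replicate 4. The neighbouring paralogue P2ry10b stood at 24.7, 24.2, 23.9 and 17.5 TPM, also lowest in replicate 4. The log2 ratio of P2ry10 over P2ry10b was 2.24 ± 0.12 (SD, n = 4), with that smallest exact permutation p (adjusted p 0.156). Their coding sequences shared 78.2% of bases over 987 aligned, and 96.2% of the 50-base words of P2ry10 occur in no other gene. All 4 listed receptors for this lipid passed 1 TPM in every library. Gpr174 averaged 69.2 TPM and Gpr34 8.24 TPM, and P2ry10 held 51.5% ± 1.27 of their summed level.

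In order of mean TPM the genes were Art2b, P2ry10, Panx1, Adora2a, P2rx7, Ada, P2rx4, Nt5e, Entpd1 and Adora2b. Neighbours whose libraries overlapped were Art2b and P2ry10, P2rx7 and Ada, Ada and P2rx4, P2rx4 and Nt5e, and Entpd1 and Adora2b. Art2b over P2ry10 had a log2 ratio of 0.13 ± 0.31, P2rx7 over Ada 0.27 ± 0.37 and P2rx4 over Nt5e 0.11 ± 0.40 (SD, n = 4 each), with exact sign-flip permutation p of 0.875, 0.25 and 0.75 and adjusted p of 0.875, 0.288 and 0.804. The other neighbours were of 1 sign in 4 of 4 libraries, each with that smallest exact permutation p (adjusted p 0.156). Among them P2ry10 over Panx1 was 1.36 ± 0.22, Panx1 over Adora2a 0.61 ± 0.11, Adora2a over P2rx7 0.60 ± 0.16, Ada over P2rx4 0.26 ± 0.17 and Entpd1 over Adora2b 0.79 ± 0.54, the last resting on 28 and 1 counts. Nt5e and Entpd1 were a set pair and are counted once. The neighbour pairs and the direction of their ratios came from the mean TPM of these same libraries. Their p-values thus do not test the order. By CPM, with no length correction, Adora2a over P2rx7 was -0.36, Ada over P2rx4 -1.54 and P2rx4 over Nt5e -0.18. With transcript lengths the order in the middle changed, with P2rx4 and Nt5e at ranks 4 and 6 and Ada at rank 8.

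Spread between libraries was tested for the 8 genes that passed the count filter. Entpd1 and Adora2b, at 28 and 1 counts, did not pass it. With edgeR's quasi-likelihood fit, 0 of the 8 varied more than the expression trend at an adjusted p below 0.05, where 0.193% of 12464 genes did. At an unadjusted p below 0.05 there were 3, Nt5e, P2rx7 and Art2b, where 5.34% of all genes passed. DESeq2 marked 0 of the 8 as dispersion outliers, against 0.866% of all genes. The median ratio of a gene's quasi-dispersion to the trend was 2.30 over the 8 genes and 0.871 over all genes tested.

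Nt5e had a ratio of 8.93 (edgeR p 0.00874, adjusted p 0.539), P2rx7 of 7.74 (p 0.0127, adjusted p 0.618) and Art2b of 6.85 (p 0.0174, adjusted p 0.688). Each was highest in replicate 4, by 0.37, 0.35 and 0.27 on the log2 scale above its own mean. Adora2a was also highest there, by 0.19. P2ry10, Ada and P2rx4 were lowest in replicate 4, at -0.19, -0.13 and -0.12 from their own means. Panx1 departed least there, at 0.04. The summed naive T cell markers were lowest in replicate 4, at 5298 TPM, with 5463 to 6049 TPM in replicates 1 to 3. Tcf7, Ccr7 and S1pr1 were each lowest in replicate 4, Lef1 in replicate 2 and Il7r in replicate 1. Tcf7 stood at 3287, 2785, 3417 and 2649 TPM in replicates 1 to 4. Ccr7 stood at 929, 815, 924 and 793 TPM, and S1pr1 at 837, 613, 758 and 608 TPM. Lef1 stood at 299, 279, 296 and 293 TPM, and Il7r at 632, 971, 654 and 956 TPM. The part of these markers in the deviations was not tested. Without replicate 4 the unadjusted edgeR p was 0.0393 for Nt5e, 0.165 for P2rx7 and 0.632 for Art2b. Without the filter on low counts these 3 genes had adjusted edgeR p of 0.00225, 0.0119 and 0.0391.

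**Figure D4:**
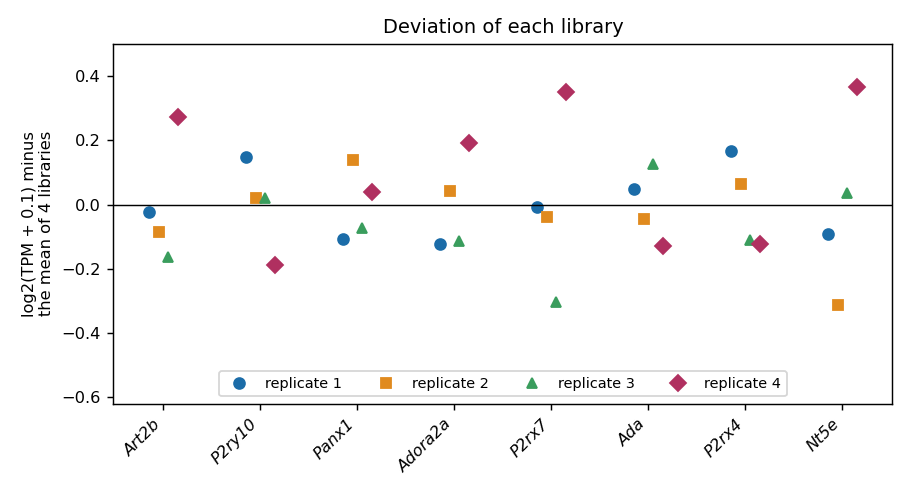
Deviation of each library from the mean of the 4, as log2(TPM + 0.1), for the 8 genes tested, with replicate 4 as diamonds. Nt5e, P2rx7, Art2b and Adora2a have their highest library in replicate 4, and P2ry10, Ada and P2rx4 their lowest.

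**Figure D5:**
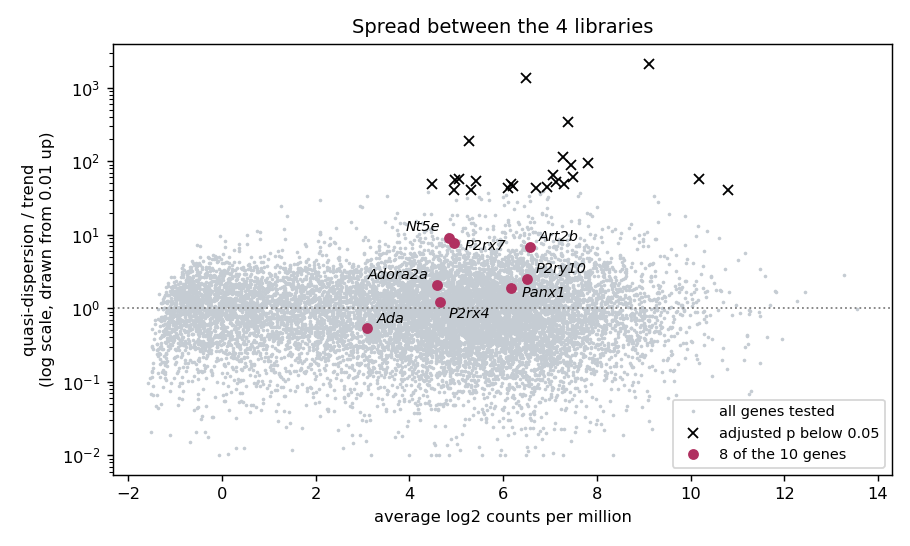
Ratio of quasi-dispersion to trend (log axis) against average log2 CPM for 12464 genes, with the 24 genes at an adjusted p below 0.05 as crosses and the 8 genes described here in red; the dotted line marks a ratio of 1. Nt5e, P2rx7 and Art2b lie highest of the 8, at 8.93, 7.74 and 6.85, below all crosses.

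As a share of the mean, the SD was 20.3% for Nt5e, 19.1% for P2rx7, 13.9% for Art2b and between 7.73% and 10.5% for Ada, Panx1, P2ry10, P2rx4 and Adora2a. The median over all genes tested was 7.94%.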

How the data were processed

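Each library has 1 deposited table of whole fragment counts for every gene, with the union length of the gene's exons. Per the file headers, featureCounts 1.4.6-p4 counted paired fragments with both ends mapped, on the reverse strand, against GENCODE M13 exons (build mm10). The command sets nothing for multi-mapping fragments, so those shared by near-identical copies were left out. The labels call the assay total RNA-seq while the linked library protocol is titled as poly(A)+. The aligner was not given in the sources used here. Gene IDs were matched to GENCODE M21 symbols, which succeeded for 50376 of 50600 IDs. Of 145 listed symbols 144 had a row, 1 of them (Art2a) through a RefSeq synonym, and Pnp was not analysed here.

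TPM was computed from the counts and lengths, each library scaled to the same total. Pairs were compared as log2(TPM + 0.1) by exact permutation (two-sided, over all sign flips) with Benjamini-Hochberg adjustment over 15 pairs. The neighbour pairs among them were picked by mean TPM in these same libraries. Spread was tested with edgeR 4.0.16 in R 4.3.3 (intercept only, TMM, filterByExpr, robust), one-sided, adjusted over 12464 genes. The test was also run on simulated counts of 1 common dispersion, which do not give its power for the 10 genes. The biological coefficient of variation of the fit was 9.80%. DESeq2 1.42.0 was an alternative, beside other length, pseudocount, filter, denominator and leave-one-out settings. The 10 genes (by pathway), the 23 other lists and the pairs were chosen with earlier results of these data known. Named genes were the 10, up to 4 genes of each list by mean TPM at 1 TPM or more in every library, those with 0 counts and pair partners, of which a few are not reported here. A few other list members, such as Lef1 and P2ry14, are named where their values limit a statement. Intervals and limits from 3 counts cover counting error only.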

Additional observations from a re-analysis of the deposited data

Results flagged for a closer look

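Among 55 genes examined, from the pathway and the marker lists, 4 had a library far from the other 3. This was measured as the gap to its neighbour over the whole range of the group. Chance flags about 1 in 20 groups of 4. P2ry10b was lowest in replicate 4, at 17.5 TPM with 23.9 to 24.7 TPM elsewhere, and Gpr174 was lowest in the same library, at 60.4 TPM with 71.4 to 73.5 TPM elsewhere. Both are lysophosphatidylserine receptors, and P2ry10 of the same list was also lowest there without standing far enough apart. Gpr34, the fourth gene of the list, was at 8.37 TPM there and lowest in replicate 1, at 7.01 TPM. On chromosome X, P2ry10, P2ry10b and Gpr174 start at 107088492, 107148927 and 107255878, and Gpr34 at 13632089. Neither receptor family nor position was tested. Slc17a9 was lowest in replicate 3, at 117 TPM with 133 to 134 TPM elsewhere. Nt5c3b was highest in replicate 2, at 79.4 TPM with 69.5 to 71.0 TPM elsewhere. None of the 10 genes was among these 4.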

How the results depend on the processing

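The count of 8 of the 10 genes at 1 TPM or more held under every threshold, length and left-out library tried. Transcript lengths moved the median of 10163 protein-coding genes by -0.14 on the log2 scale, and a denominator of nuclear protein-coding genes moved it by 0.19. With transcript lengths the log2 ratio of P2rx7 over P2rx4 was -0.57, Ada over P2rx4 -0.87, Entpd1 over Nt5e -6.55, P2ry10 over P2ry10b 2.10, Ada over Adk -1.80 and Panx1 over Panx2 8.31. With CPM, which has no length correction, Adora2a over P2rx7 was -0.36, Ada over P2rx4 -1.54, P2rx4 over Nt5e -0.18, Entpd1 over Nt5e -6.81, P2ry10 over P2ry10b 2.02, Ada over Adk -1.91 and Panx1 over Panx2 9.48. The change of unit also moves values against the pseudocount, which sets the ratios of Panx2 at 0 counts and Entpd1 near 0.1 TPM. With a pseudocount of 1 TPM, Adora2a over Adora2b was 4.78, Entpd1 over Nt5e -3.50, Art2b over Art2a-ps 6.64 and Panx1 over Panx2 5.40. Leaving out 1 library at a time, Art2b over P2ry10 ran from -0.022 (without replicate 4) to 0.19 and P2rx4 over Nt5e from -0.017 (without replicate 2) to 0.27. The count of all genes called for spread was 24, with 349 without the count filter, 5 without the robust fit and 108 by DESeq2, and ran from 7 (without replicate 3) to 86 (without replicate 4), with 13 without replicate 2. Of the 8 genes tested 0 were called, except 3 without the count filter. The cause was not tested. No paired analysis was possible because the libraries form 1 group. Entpd1 and Adora2b are limited by depth, at 28 and 1 counts.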
